A study of Mus musculus with 6 samples.

Results

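Glucose enters the early embryo through facilitative transporters and is broken down by glycolysis, and 10 genes of this route were followed in mouse morulae: the transporters *Slc2a1* and *Slc2a3*, the hexokinases *Hk1* and *Hk2*, and *Gpi1*, *Aldoa*, *Pgk1*, *Eno1*, *Ldha* and *Ldhb*. They were picked by symbol out of 55364 genes with a value per library, with earlier results of these data known. The 10 symbols have 11 entries, because *Aldoa* is listed under 2 identifiers, and the entry with the higher level was taken for that gene. The data are RNA-seq of control KD and *Yy1* KD morulae, with 3 libraries per group and a pool of 10 morulae per library, collected 64 h after insemination. The question was which transcripts depend on YY1, a zinc finger transcription factor, at the morula stage.

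All embryos came from in vitro fertilization of BDF1 oocytes with BDF1 sperm, BDF1 being a hybrid of inbred mouse strains, and were cultured in KSOM medium. Both groups had an siRNA injected as zygotes. It was directed against *Yy1* in the *Yy1* KD group, and the control group carries a control knockdown. The paper gives ranges of age for the adult female and male mice, and the females were superovulated with hormones. The age of the parents of each pool and the sex of the embryos are not given in the labels. A knockdown lowers the transcript without deleting the gene, and a pool hides differences between embryos. Nothing in the labels says whether the pools came from separate cultures, so the p-values given here measure the spread between these pools, which may be technical in part. In bulk samples, fewer cells of a type and less RNA per cell cannot be told apart.

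Glycolysis converts a molecule of glucose to pyruvate in a chain of cytosolic reactions that yield ATP and NADH, and lactate dehydrogenase turns pyruvate and NADH into lactate and NAD+. The mouse embryo relies mainly on pyruvate and lactate in the first cleavages and takes up more glucose from the morula stage on. Besides feeding glycolysis, glucose supplies the pentose phosphate pathway, which makes NADPH and ribose phosphate, and the hexosamine pathway, which makes the sugar donor for glycosylation.

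Values are in TPM, a unit in which the read pairs of a gene are corrected for the length of its exons. Each library sums to 1000000. Levels of different genes can be set side by side only roughly, as they depend on annotated exons and on sequence shared with other genes. Differences were tested with limma on log2(TPM + 1) over the 17353 genes that reached a TPM of 1 in 3 or more of the 6 libraries, and a gene was called up- or downregulated at a Benjamini-Hochberg adjusted p under 0.05. Fold changes are therefore on the log2(TPM + 1) scale, *Yy1* KD minus control KD, which understates the change of genes with low values. All 10 genes passed the filter on low values. The depth, recovered from TPM and exon lengths, was between 11793509 and 24417789 read pairs on genes per library. *Yy1* itself, the siRNA target, was at 89.8 to 100.2 TPM in control KD and 8.32 to 8.90 TPM in *Yy1* KD libraries (log2 fold change -3.32, adjusted p = 6.71e-05).

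The libraries looked like embryo RNA. Of 12 embryo markers, such as *Pou5f1*, *Nanog* and *Cdx2*, all 12 passed the filter, and their summed level was 6750 to 7260 TPM in control KD and 6730 to 7160 TPM in *Yy1* KD libraries, most of it *Dppa3* (4329 to 4909 TPM). Limma called 1 of them (*Tfap2c*, lower), limma-voom called 2 lower, and 3 were lower at an unadjusted p under 0.05 in the limma fit. These 3 were *Tfap2c* and, named after their values were seen, *Sox2* and *Cdh1*, at 51.0% and 57.4% of the control mean. Over all genes tested, limma called 4.20% lower, limma-voom called 1280 genes lower, and 23.8% had an unadjusted p under 0.05 in either direction. Of 18 markers of cumulus and granulosa cells, which surround the oocyte and are rich in glycolytic transcripts, 4 passed the filter, 0 were called by limma or limma-voom, 0 had an unadjusted p under 0.05 in the limma fit, and *Has2*, *Ptx3*, *Tnfaip6*, *Ereg*, *Fshr* and *Cyp19a1* were at 0 in every library. Their summed level was 14.8 to 19.9 TPM in control KD and 15.7 to 20.1 TPM in *Yy1* KD libraries. The 4 that passed were named after their values were seen. Over both groups, *Amhr2* was at 7.15 to 10.02 TPM, *Inhbb* at 2.1 to 3.9 TPM, *Areg* at 1.66 to 6.06 TPM and *Star* at 0.87 to 2.5 TPM. Sperm and testis genes, including the testis paralogs *Pgk2*, *Ldhc* and *Gapdhs*, summed to at most 4.12 TPM in any library. The 11 listed maternal oocyte transcripts summed to 93.7 to 136 TPM and 110 to 136 TPM.

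Of the 10 genes, *Aldoa* alone passed the test between *Yy1* KD and control KD morulae. Thus 1 was downregulated and 0 were upregulated, against 4.20% and 1.92% of all genes tested. No gene of the 10 was higher at an unadjusted p under 0.05 in the limma fit (0) or called higher by limma-voom (0). Log2 fold changes were below 0 for 6 genes and above 0 for 4, with a median of -0.32 beside -0.03 over all genes tested, of which 52.8% had a lower value. Without control KD replicate 3 the median of the 10 genes was -0.177. For 6 genes, the 3 values of each group did not overlap, compared with 30.1% of all genes tested; 5 of these were lower in *Yy1* KD, compared with 17.2%. An unadjusted p under 0.05 in the limma fit was seen for 5 genes, all lower, and for 23.8% of all genes tested in either direction. The summed level of the 10 genes was 479 to 556 TPM in control KD and 361 to 433 TPM in *Yy1* KD libraries, so that the groups did not overlap, and most of this sum is *Aldoa* and *Slc2a3*.

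**Figure D1:**
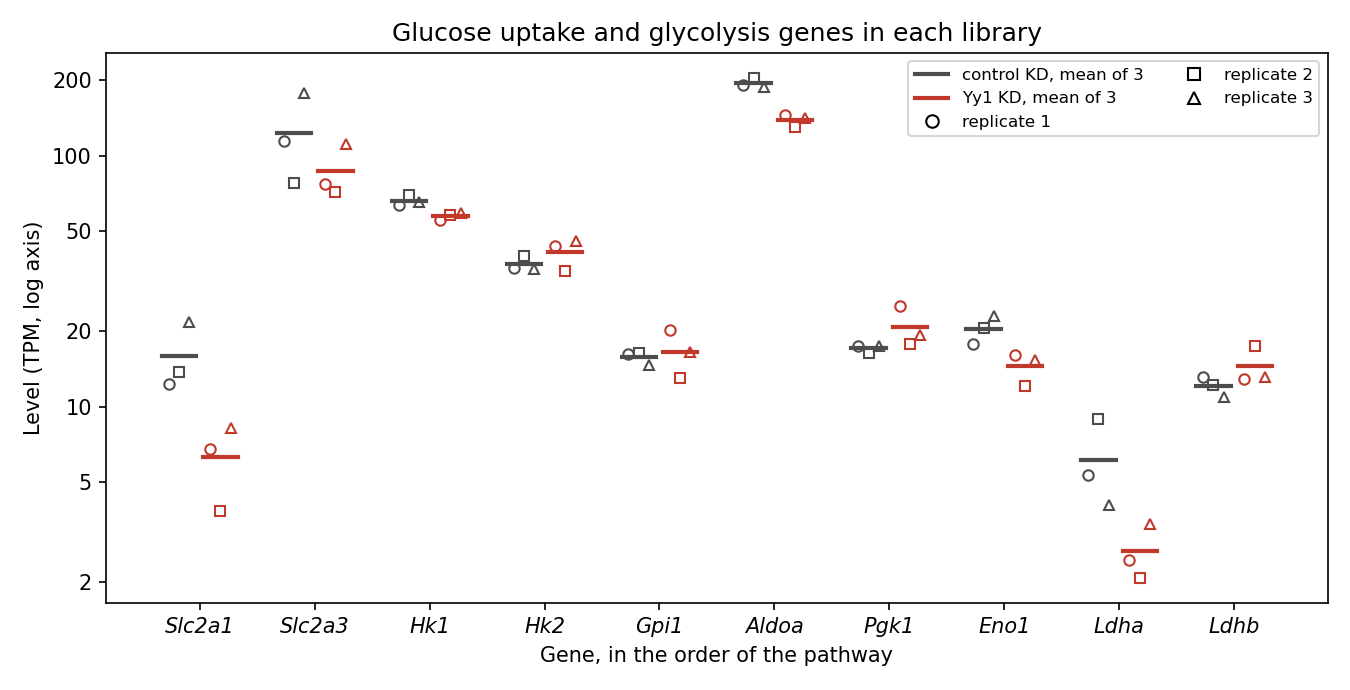
Level of each of the 10 genes in each library, in TPM on a log axis, in the order of the pathway; symbols are the 3 replicates of control KD (grey) and *Yy1* KD (red) morulae and bars are group means. The groups are apart for *Slc2a1*, *Hk1*, *Aldoa*, *Eno1* and *Ldha*, all lower in *Yy1* KD, and for *Pgk1*, which is higher, and they overlap for the other 4 genes.

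In control KD morulae the genes spanned a wide range of levels. *Aldoa* was highest at 194 ± 8.83 TPM (SD, n = 3), followed by *Slc2a3* at 123 ± 50.4 TPM, *Hk1* at 66.1 ± 3.07 TPM and *Hk2* at 36.9 ± 2.54 TPM. *Eno1* at 20.4 ± 2.64 TPM, *Pgk1* at 17.1 ± 0.645 TPM, *Slc2a1* at 15.9 ± 5.04 TPM, *Gpi1* at 15.7 ± 0.936 TPM and *Ldhb* at 12.1 ± 1.10 TPM came next, and *Ldha* was last at 6.11 ± 2.52 TPM. Neighbours in this order were separated in all 3 control libraries, apart from *Pgk1* and *Slc2a1* and from *Slc2a1* and *Gpi1*, whose values overlapped. Genes of a single linear route thus stood at very different TPM, but the order is rough. Reads aligned to several places were not counted. Of the 150-nt windows of the transcripts, 66.1% for *Pgk1* and 49% for *Eno1* occur in another annotated gene. All exons together can also be much longer than 1 transcript, 5379 against 2027 nt for *Eno1* and 6452 against 2884 nt for *Gpi1*.

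*Slc2a1* encodes GLUT1, a widely expressed facilitative glucose transporter, and occupies chromosome 4 from 119108711 to 119137983, plus strand (GRCm38, GENCODE vM21, as for all positions of genes below). Control KD libraries held 12.3, 13.7 and 21.6 TPM of this transcript, and *Yy1* KD libraries 6.76, 3.84 and 8.26 TPM. Every *Yy1* KD value was below every control KD value, and the *Yy1* KD mean was 39.6% of the control mean. The log2 fold change of -1.22 (standard error 0.30, 95% interval -1.94 to -0.50) was the largest of the 10 genes, with an adjusted p of 0.0652, so *Slc2a1* was not called. It passed the threshold in 2 of 16 alternative fits, with genes of a mean TPM of at least 5 (adjusted p = 0.0469) and with limma-voom on recovered read pairs (log2 fold change -1.35, adjusted p = 0.0105), and the range over all alternatives was 0.0105 to 0.164. The recovered read pairs were 223, 497 and 566 in control KD and 184, 74 and 144 in *Yy1* KD libraries. The antisense gene *Gm12868* overlaps its exons by 105 nt, or 2.99%, at 0.463 to 4.18 TPM.

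*Slc2a3* encodes GLUT3, a high-affinity transporter found on the outer surface of the late preimplantation embryo, and lies on the minus strand of chromosome 6 from 122727809 to 122801640. The control KD libraries had 114, 77.7 and 177 TPM, and the *Yy1* KD libraries 77.3, 71.6 and 112 TPM. The spread within the control group was wide, replicate 3 was highest in both groups, and the groups overlapped. The difference of -0.45 (standard error 0.31, 95% interval -1.18 to 0.28, adjusted p = 0.434) did not pass the test, and it was -0.145 without control KD replicate 3 and -0.734 without control KD replicate 2. Of the summed TPM of the 2 transporters, *Slc2a3* made up 90.3%, 85% and 89.1% in control KD and 92.0%, 94.9% and 93.1% in *Yy1* KD libraries. The share was higher in each *Yy1* KD library than in any control KD library, by 5.19 percentage points on average (88.1 ± 2.78% and 93.3 ± 1.49%, SD, n = 3 each; two-sided exact permutation test, p = 0.1).

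This p is the smallest that 3 libraries against 3 can give, also after adjustment over the 3 shares tested (adjusted p = 0.1 for each), so no share can reach 0.05 in this design.

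*Hk1* and *Hk2* encode hexokinases, which phosphorylate glucose on entry and so keep it in the cell. *Hk1*, on the minus strand of chromosome 10 from 62268855 to 62379908, was at 63.7, 69.6 and 65.1 TPM in control KD and at 55.3, 58.0 and 59.2 TPM in *Yy1* KD libraries. The values were close within each group and did not overlap between groups, although the difference was small (log2 fold change -0.20, standard error 0.08, 95% interval -0.38 to -0.02, adjusted p = 0.172). *Hk2*, on the minus strand of chromosome 6 from 82725025 to 82774454, was at 35.5, 39.8 and 35.3 TPM in control KD and at 43.5, 34.8 and 45.9 TPM in *Yy1* KD libraries. *Yy1* KD replicate 2 was the lowest library of all and the other *Yy1* KD libraries were the highest, and the gene was not called (log2 fold change 0.15, standard error 0.12, 95% interval -0.14 to 0.45, adjusted p = 0.506). The value was 0.077 without *Yy1* KD replicate 3 and 0.271 without *Yy1* KD replicate 2. *Hk2* made up 35.8 ± 0.622% of the hexokinase pair in control KD and 41.7 ± 3.67% in *Yy1* KD morulae (SD, n = 3 each), without overlap (37.5% to 44.0% against 35.2% to 36.4%; exact permutation p = 0.1). The antisense gene *Hk1os* shares 157 nt with the exons of *Hk1* and was at 0.332 to 2.01 TPM.

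*Gpi1* encodes glucose-6-phosphate isomerase, which makes fructose 6-phosphate, and lies on the minus strand of chromosome 7 from 34201330 to 34230336. The control KD libraries had 16.3, 16.3 and 14.7 TPM and the *Yy1* KD libraries 20.2, 13.1 and 16.4 TPM. The *Yy1* KD values lay on both sides of the control values, and the log2 fold change of 0.05 (standard error 0.17, 95% interval -0.35 to 0.44, adjusted p = 0.892) changed sign without *Yy1* KD replicate 1, to -0.096. Annotation places the lincRNA *Gm26762* over 741 nt, or 11.5%, of its exons. The pseudogene *Gpi-ps*, which matches a stretch of the *Gpi1* transcript, was at 2.02, 7.74 and 5.99 TPM in control KD and 6.58, 8.51 and 4.44 TPM in *Yy1* KD libraries (log2 fold change 0.36, adjusted p = 0.657).

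*Aldoa* encodes aldolase A, which splits fructose 1,6-bisphosphate into triose phosphates, and lies on the minus strand of chromosome 7 from 126795234 to 126800751. Control KD libraries held 190, 204 and 187 TPM and *Yy1* KD libraries 145, 130 and 141 TPM. The groups were well apart, with a *Yy1* KD mean of 138.5 ± 7.77 TPM at 71.5% of the control mean of 193.6 ± 8.83 TPM (SD, n = 3 each). *Aldoa* was downregulated with a log2 fold change of -0.48 (standard error 0.08, 95% interval -0.66 to -0.30, adjusted p = 0.021), the only call among the 10 genes. The direction and size held in all 16 alternative fits, with log2 fold changes from -0.51 to -0.44, while the call held in 9 of them and the adjusted p ranged from 0.00432 to 0.0752. It was lost, among other settings, without a variance trend (adjusted p = 0.0752), when any single control KD library, or *Yy1* KD replicate 2 or 3, was left out, and kept without *Yy1* KD replicate 1 (adjusted p = 0.0424), the adjusted p reaching 0.072 with a library left out. The other entry listed as *Aldoa* did not exceed 1.13 TPM in any library. The neighbouring gene *Fam57b*, whose exons overlap *Aldoa* by 25 nt, was at 21.07, 23.53 and 19.99 TPM in control KD and 14.5, 16.2 and 17.8 TPM in *Yy1* KD libraries. These values were also lower in each *Yy1* KD library, and their part in the level of *Aldoa* was not tested.

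*Pgk1* encodes phosphoglycerate kinase 1, which forms ATP from 1,3-bisphosphoglycerate, and lies on the plus strand of the X chromosome from 106187100 to 106203699. Its level was 17.5, 16.3 and 17.4 TPM in control KD and 25.2, 17.8 and 19.3 TPM in *Yy1* KD libraries. Of the 6 genes without overlap it alone was higher in *Yy1* KD, and *Yy1* KD replicate 1 accounted for most of the gap. On the log2 scale the difference was 0.25 (standard error 0.15, 95% interval -0.09 to 0.60, adjusted p = 0.342), or 0.113 without *Yy1* KD replicate 1, and the gene was not called. Of the 150-nt windows of its transcript, 66.1% occur in another annotated gene, so its level is uncertain. The copies *Pgk1-rs7* (at most 0.724 TPM) and *Gm5537* (0 in every library) had low values. Reads aligned to several places were not counted for any gene, so these values cannot show how many reads were lost.

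As *Pgk1* is X-linked, transcripts that differ between the sexes were read beside it. *Xist*, which is expressed from the inactive X of female embryos, was at 49.7, 28.2 and 84.2 TPM in control KD and 26.4, 30.1 and 58.5 TPM in *Yy1* KD libraries, and was not called (adjusted p = 0.597). The Y-linked gene *Ddx3y* was at 18.1, 30.5 and 17.8 TPM in control KD and at 5.04, 5.14 and 3.55 TPM in *Yy1* KD libraries (log2 fold change -2.02, adjusted p = 0.0126). *Eif2s3y*, also Y-linked, was at 4.09 to 7.77 TPM and 3.23 to 5.24 TPM, with overlapping groups and no call (adjusted p = 0.316), *Uty* at 1.05 to 1.60 TPM and 0.145 to 0.433 TPM (adjusted p = 0.0948), and *Kdm5d* stayed near 1 TPM or below. The *Yy1* KD mean was 20.7% of the control mean for *Ddx3y*, 21.7% for *Uty* and 64.3% for *Eif2s3y*. Embryo sex and the knockdown cannot be told apart in these transcripts. The part of embryo sex in the level of *Pgk1*, or of any other X-linked gene, was not tested.

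*Eno1* encodes enolase 1, which makes phosphoenolpyruvate, and occupies chromosome 4 from 150236721 to 150248879, plus strand. The control KD libraries had 17.7, 20.5 and 23.0 TPM and the *Yy1* KD libraries 16.1, 12.1 and 15.3 TPM. The groups were next to each other without overlap, with control KD replicate 1 and *Yy1* KD replicate 1 the nearest, and the *Yy1* KD mean was 14.5 ± 2.16 TPM. *Eno1* was not called (log2 fold change -0.47, standard error 0.15, 95% interval -0.83 to -0.10, adjusted p = 0.126). Of its 150-nt windows, 49% occur in another annotated gene, mainly the near-identical *Eno1b* and *Gm4735*. Reads aligned to more than 1 of the 3 were not counted, so the levels of all 3 are uncertain. *Eno1b* was at 3.65, 9.78 and 7.18 TPM in control KD and 6.16, 5.18 and 3.87 TPM in *Yy1* KD libraries (log2 fold change -0.31, adjusted p = 0.624). The pseudogene *Gm4735*, named after its values were seen, was at 5.05, 3.94 and 4.58 TPM in control KD and 2.58, 1.82 and 1.86 TPM in *Yy1* KD libraries (log2 fold change -0.84, adjusted p = 0.0587). Neither copy was called.

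*Ldha* and *Ldhb* encode the subunits of lactate dehydrogenase, LDHA being the form that favours lactate production and LDHB the form abundant in the oocyte and early embryo. *Ldha*, at chromosome 7 from 46841475 to 46855627 on the plus strand, was at 5.37, 8.92 and 4.05 TPM in control KD and at 2.46, 2.09 and 3.42 TPM in *Yy1* KD libraries. Every *Yy1* KD value was below every control value and the *Yy1* KD mean was 43.4% of the control mean, but the control values ranged widely and the gene was not called (log2 fold change -0.92, standard error 0.29, 95% interval -1.62 to -0.22, adjusted p = 0.118). Few read pairs stood behind these values, 92, 305 and 100 in control KD and 63, 38 and 56 in *Yy1* KD libraries. *Ldhb*, on the minus strand of chromosome 6 from 142490249 to 142507957, was at 13.17, 12.21 and 10.97 TPM in control KD and at 12.9, 17.4 and 13.1 TPM in *Yy1* KD libraries. Its groups overlapped, and they differed by 0.23 on the log2 scale (standard error 0.15, 95% interval -0.14 to 0.59, adjusted p = 0.421), and by 0.099 without *Yy1* KD replicate 2. The share of *Ldhb* in the pair was 71.0%, 57.8% and 73.0% in control KD and 84.0%, 89.3% and 79.3% in *Yy1* KD libraries, the widest gap of the 3 shares at 16.9 percentage points (67.3 ± 8.29% and 84.2 ± 4.97%, SD, n = 3 each; exact permutation p = 0.1). In both groups the TPM of *Ldhb* was above that of *Ldha* in every library. This order and the size of the share depend on the exon length that TPM is divided by. In vM21 all exons together span 3310 nt for *Ldha* and 1570 nt for *Ldhb*, and single transcripts 1766 and 1304 nt. The order with other lengths was not tested.

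**Figure D2:**
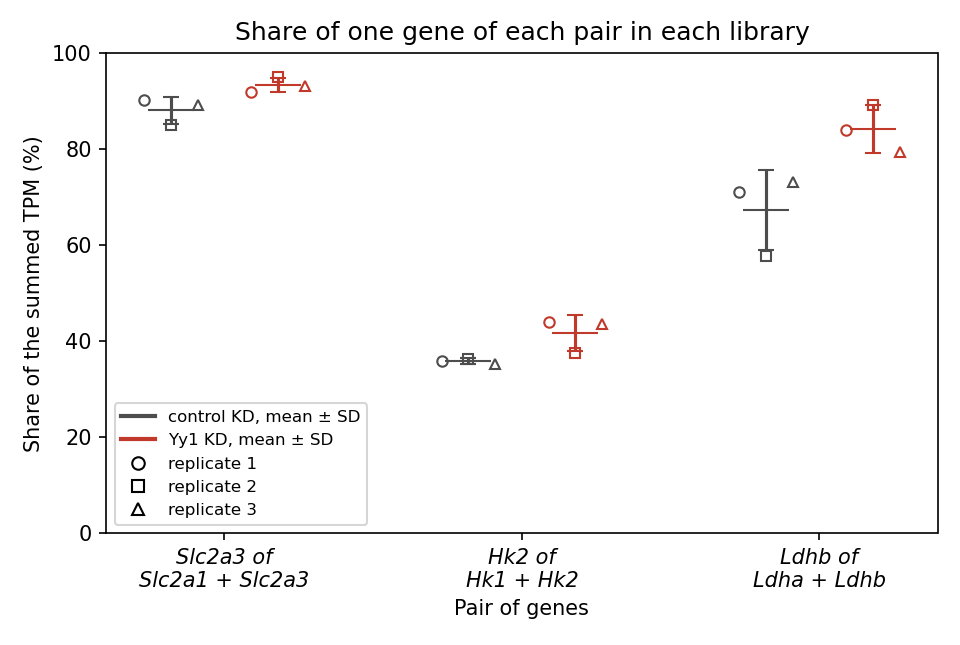
Share (%) of the summed TPM of each gene pair taken by *Slc2a3*, *Hk2* and *Ldhb* in each library; symbols are the 3 replicates and crosses with bars the mean ± SD of control KD (grey) and *Yy1* KD (red) morulae. All 3 shares are higher in every *Yy1* KD library than in any control KD library, with means of 88.1% and 93.3%, 35.8% and 41.7%, and 67.3% and 84.2%.

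Promoter sequence is shown for *Aldoa*, because it was the gene called, and for *Slc2a1* and *Ldha*, because they had the lowest ratios of *Yy1* KD to control KD mean. The 250 bases before a RefSeq transcript start (GRCm38.p6) are given 5′ to 3′ on the strand of the gene, and capitals mark the motifs searched, the core of the YY1 motif (GCCAT, or ATGGC on the other strand) and the core of the hypoxia response element (ACGTG or GCGTG, or CACGT or CACGC). The window of *Slc2a1* is at chr4:119108495-119108744 (plus strand), that of *Aldoa*, the farthest upstream of 3, at chr7:126800448-126800697 (minus strand), and that of *Ldha*, the farthest upstream of 2, at chr7:46845554-46845803 (plus strand).
Slc2a1: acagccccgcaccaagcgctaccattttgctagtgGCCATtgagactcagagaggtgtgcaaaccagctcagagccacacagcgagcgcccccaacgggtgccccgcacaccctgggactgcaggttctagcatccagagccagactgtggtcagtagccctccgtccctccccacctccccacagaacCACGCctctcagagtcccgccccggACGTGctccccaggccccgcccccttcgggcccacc
Aldoa: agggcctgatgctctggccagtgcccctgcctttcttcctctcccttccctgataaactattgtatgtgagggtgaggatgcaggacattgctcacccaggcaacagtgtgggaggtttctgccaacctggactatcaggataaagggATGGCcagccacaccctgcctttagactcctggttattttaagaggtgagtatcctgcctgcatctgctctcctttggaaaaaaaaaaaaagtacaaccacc
Ldha: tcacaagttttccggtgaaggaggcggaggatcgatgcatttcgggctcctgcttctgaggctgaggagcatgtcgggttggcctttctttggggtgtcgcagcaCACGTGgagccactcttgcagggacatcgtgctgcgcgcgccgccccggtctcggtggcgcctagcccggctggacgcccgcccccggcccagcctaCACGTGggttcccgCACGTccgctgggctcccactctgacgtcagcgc

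The *Slc2a1* window holds a YY1 core whose first base is at position -215 relative to the start, and hypoxia response cores at -61 and -36. In the printed *Aldoa* window, a YY1 core begins at position -102, with no hypoxia response core in these letters. The windows of *Aldoa* that are not printed go the other way. They hold a hypoxia response core, at -126 and at -202 relative to their own starts, and no YY1 core. *Ldha* has CACGTG at positions -145 and -48, a sequence that reads as the hypoxia response core on both strands, and a further CACGT at -34, with no YY1 core in this window. The *Ldha* window that is not printed holds a YY1 core at -111. CACGTG is also the E-box motif and was searched as such only after these sequences were seen; it is in 7.15% of all promoter windows.

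Over the windows of 300 bases (250 before and 50 after a start) of the 9 genes that matched the promoter table, 15 in all, the full YY1 consensus GCCATNTT (AANATGGC) was in 0, and it is in 6.05% of the 32851 windows of the genome. The YY1 core was in 7 windows of 5 genes, *Aldoa*, *Eno1*, *Gpi1*, *Ldha* and *Slc2a1*, compared with 40.5% of all windows. The hypoxia response core was in 12 windows of 8 genes, the exception being *Gpi1*, compared with 43.8% of all windows. Some windows of a gene overlap and so share a match, and a match is a stretch of letters, not a bound site.

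The steps that the 10 genes leave out were read from the most abundant gene of each. *Gapdh*, which encodes the dehydrogenase that makes NADH from glyceraldehyde 3-phosphate, was downregulated, at 6.62, 6.68 and 7.26 TPM in control KD and 2.44, 1.89 and 3.27 TPM in *Yy1* KD libraries (log2 fold change -1.17, standard error 0.20, adjusted p = 0.0268). Its groups were well apart, but 74% of its 150-nt windows occur in another annotated gene, and the call held in 8 of 15 alternatives and in 1 of 6 fits with a library left out (adjusted p from 0.00288 to 0.0988). *Tpi1*, encoding triosephosphate isomerase, was at 5.90, 6.51 and 7.96 TPM in control KD and 3.80, 3.14 and 3.92 TPM in *Yy1* KD libraries, without overlap and without a call (log2 fold change -0.75, adjusted p = 0.0606). *Pfkl*, encoding a phosphofructokinase subunit, was at 3.24 to 4.98 TPM and 2.88 to 4.63 TPM (log2 fold change -0.15, adjusted p = 0.736). *Pgam1*, encoding phosphoglycerate mutase, was far more abundant at 143 to 171 TPM and 131 to 152 TPM (log2 fold change -0.10, 95% interval -0.34 to 0.13, adjusted p = 0.586), although 37.9% of its windows are shared with other genes. *Pkm*, encoding pyruvate kinase, was at 41.6, 51.7 and 51.7 TPM in control KD and 58.0, 57.7 and 53.3 TPM in *Yy1* KD libraries, higher without overlap and not called (log2 fold change 0.23, adjusted p = 0.269).

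**Figure D3:**
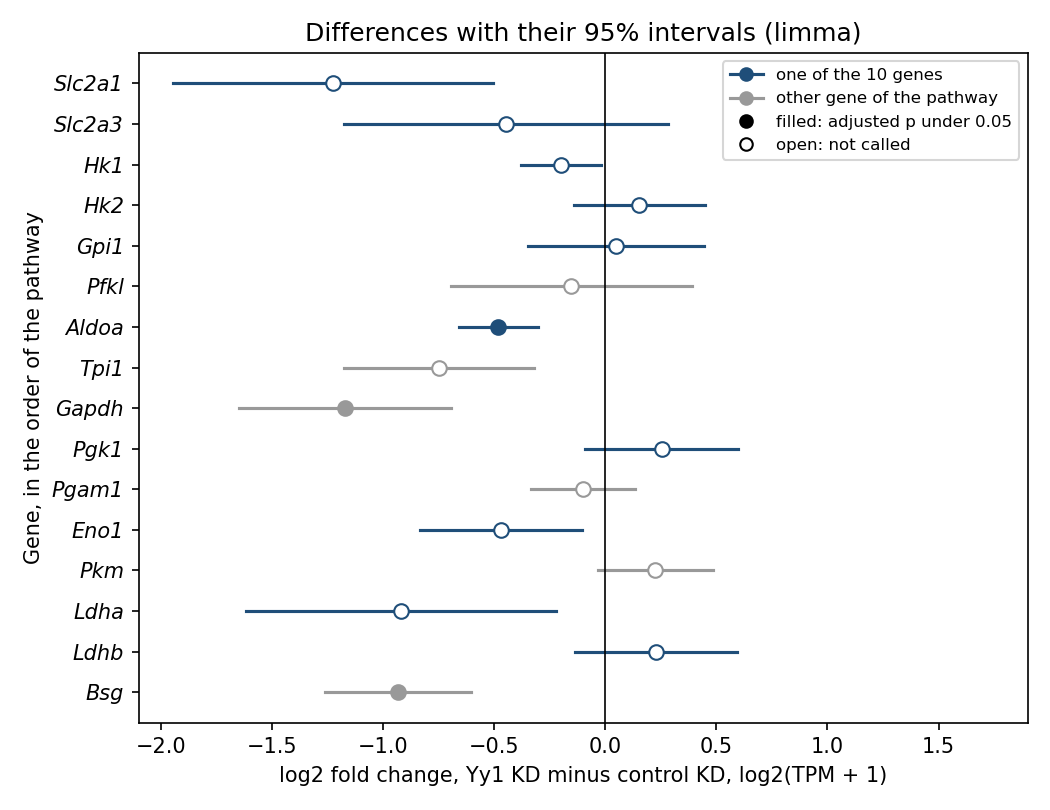
Log2 fold change on the log2(TPM + 1) scale (*Yy1* KD minus control KD, points) with its 95% interval from limma (lines) for the 10 genes (blue) and the most abundant gene of each other step with *Bsg* (grey), in the order of the pathway. Filled points passed an adjusted p under 0.05: *Aldoa* at -0.48, *Gapdh* at -1.17 and *Bsg* at -0.93; *Slc2a1* has the lowest point, -1.22, and a wide interval.

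Counting paralogs as well, 32 other glycolytic genes were listed, of which 17 passed the filter on low values, 1 was downregulated (*Gapdh*) and 0 were upregulated, with a median log2 fold change of -0.31. Among 8 carriers of lactate and pyruvate, 5 passed the filter and 1 was downregulated. This was *Bsg*, which encodes basigin, the membrane chaperone of the monocarboxylate transporters, at 259, 196 and 276 TPM in control KD and 133, 115 and 130 TPM in *Yy1* KD libraries. The groups did not overlap, the *Yy1* KD mean was 51.8% of the control mean, and *Bsg* was lower by a log2 fold change of -0.93 (standard error 0.14, adjusted p = 0.0188), called in 12 of 16 alternatives and in 2 of 6 fits with a library left out (adjusted p from 0.00136 to 0.0695). *Slc16a1*, the lactate and pyruvate transporter MCT1, named after its values were seen, was at 23.2, 26.3 and 38.5 TPM in control KD and 19.1, 11.7 and 24.7 TPM in *Yy1* KD libraries, with overlapping groups and no call (log2 fold change -0.66, adjusted p = 0.23). The mitochondrial pyruvate carrier genes, also named afterwards, had values near 0, *Mpc1* with a log2 fold change of -0.003 (95% interval -0.19 to 0.19) and *Mpc2* with -0.021 (95% interval -0.30 to 0.26).

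Over all 6 lists of other genes of glucose metabolism, 96 genes were listed and 70 passed the filter. Of these, 3 were downregulated and 4 upregulated, again beside 4.20% and 1.92% of all genes tested, and the median log2 fold change was -0.08. All 4 upregulated genes were in the list of hexosamine, polyol and glycogen enzymes. In the lists of phosphofructokinase regulators with gluconeogenic enzymes (9 tested, median -0.18) and of the pentose phosphate pathway (8 tested, median -0.12), limma and limma-voom called 0 genes. At an unadjusted p under 0.05 in the limma fit, the first had 2 lower genes and the second 1 lower and 1 higher. Of all genes tested, 23.8% had such a p in either direction.

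**Figure D4:**
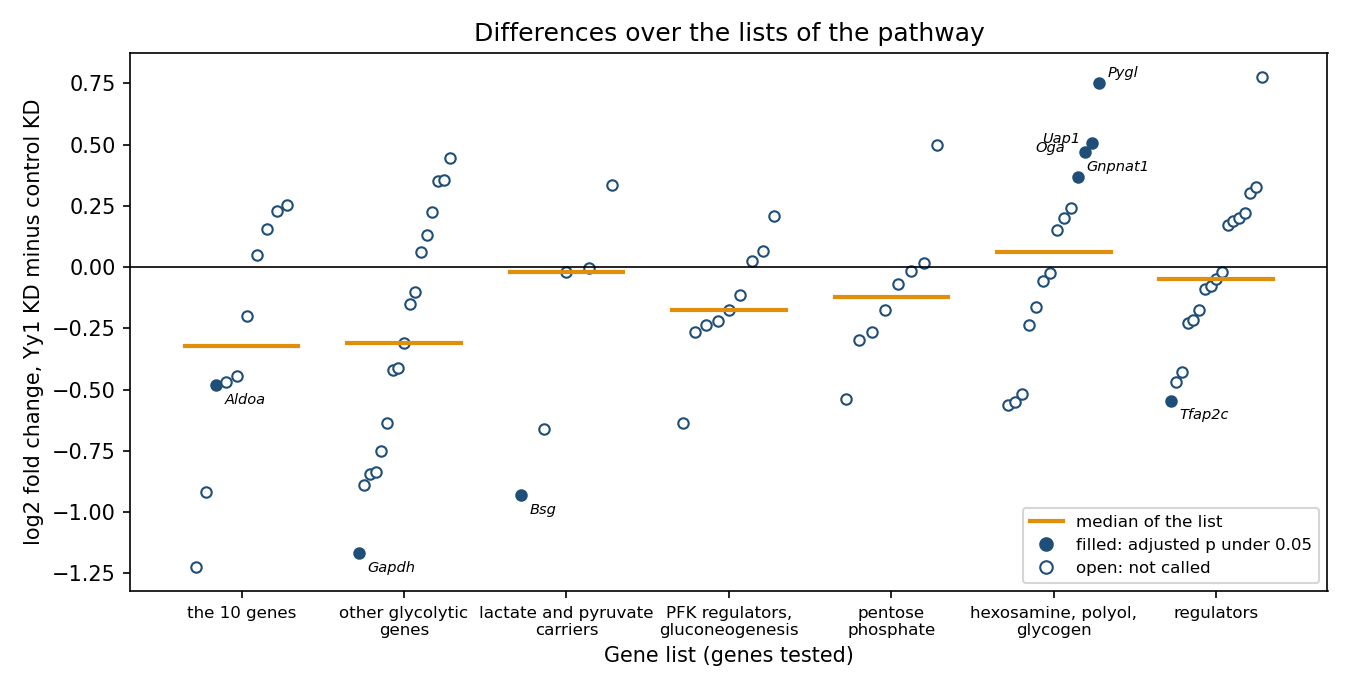
Log2 fold change on the log2(TPM + 1) scale (*Yy1* KD minus control KD) of each tested gene, by list, sorted within a list; filled points passed an adjusted p under 0.05 and are named, and orange lines are list medians. The medians are -0.32 for the 10 genes, -0.31 for other glycolytic genes, -0.02 for carriers, -0.18 for phosphofructokinase regulators and gluconeogenic enzymes, -0.12 for pentose phosphate enzymes, 0.06 for hexosamine, polyol and glycogen enzymes and -0.05 for regulators.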

How the data were processed

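Total RNA of 6 pools of morulae, 3 per group, was measured by RNA-seq. The authors trimmed the reads (Trim Galore 0.6.7), aligned them to mm10 (HISAT2 2.2.1), removed ribosomal RNA reads (bedtools), assigned read pairs to GENCODE vM25 genes (featureCounts 2.0.1, strand ignored, pairs on several genes divided among them, with no option for reads aligned to several places) and deposited TPM per gene and library. The values are relative within a library, and sequence shared by gene copies loses reads. No column of values was left unused (0).

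TPM is not suited to a count test, and limma (version 3.58.1, R 4.3.3) with a variance trend was fitted to log2(TPM + 1) without a replicate block, two-sided, over genes with TPM of at least 1 in 3 of 6 libraries. The fit was tested on simulated data. Standard errors and 95% intervals are those of limma. Shares were compared with two-sided exact permutation tests, and ± is the SD. Read pairs were recovered from TPM and the exon lengths of GENCODE vM21, to which 54312 of 55364 genes (98.1%) matched by identifier and version; between 80.6% and 81.6% of the values came out whole and at least 99.3% as multiples of a sixth of a pair. Positions and overlaps are from vM21, and promoters from RefSeq (GRCm38.p6).

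The members and lists were chosen with earlier results of these data known. Named were *Yy1*, the 10 genes, called genes of the wider lists (at most 5 per list), the most abundant gene of each list and each left-out step, copies of members with a mean TPM of at least 5 and genes overlapping a member's exons. Any further gene is marked in the text as picked later. Tables and plots used pandas 2.3.3, scipy 1.17.1 and matplotlib 3.10.9. The alternatives were, for scaling, median ratios or quantiles, for the fit, robust variances, library weights, a replicate block or no trend, for low values, a pseudocount of 0.1, no filter or a mean TPM of at least 5, then each library left out, and, added after seeing the data, limma-voom on recovered read pairs. Repeats, other stages and protein sequences were not analysed here.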

Additional observations from a re-analysis of the deposited data

How the results depend on the processing

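Over the alternatives, *Aldoa* and *Slc2a1* were the only ones of the 10 genes whose call changed. Of the 10 genes, 2 were called lower with a mean TPM of at least 5 (which drops *Ldha* from the test) and 2 with limma-voom (which lacks *Ldhb*, listed in another version than vM21), and 0 without a variance trend, 0 with the replicate block, and 0 to 1 with a library left out. Over all genes, 333 were called higher and 728 lower; the counts were 77 and 270 without a filter, 132 and 382 without a variance trend, 69 and 218 with the replicate block, 809 and 1280 with limma-voom, and 23 to 81 and 50 to 335 with a library left out, lowest in both directions without control KD replicate 3. For the 10 genes, the median log2 fold change was -0.177 without that library and -0.356 to -0.177 over the fits with a library left out. No sign of a result that was called reversed, and the cause of each change was not tested. Same-numbered libraries of the groups did not deviate together (r between -0.00388 and 0.0747 over 17353 genes), so the replicate block, under which *Aldoa* had an adjusted p of 0.0737, *Gapdh* 0.0665, *Bsg* 0.0395, *Tfap2c* 0.0491 and the 4 upregulated genes of the wider lists 0.0745 to 0.0857, rests on a shared number alone. No scaling moved the median of all genes by more than 0.1. With 3 pools per group, the 95% interval of *Slc2a3* ran from -1.18 to 0.28.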

Other observations

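The genes upregulated among the lists of glucose metabolism belonged to the hexosamine and glycogen branches. *Gnpnat1* and *Uap1*, which encode enzymes on the way to UDP-N-acetylglucosamine, had log2 fold changes of 0.37 (102, 90.5 and 93.4 TPM in control and 130, 119 and 121 TPM in *Yy1* KD, limma adjusted p = 0.0467) and 0.51 (273, 242 and 234 TPM in control and 340, 384 and 341 TPM in *Yy1* KD, adjusted p = 0.0289). *Oga*, which encodes the enzyme that removes O-linked N-acetylglucosamine from proteins, had 69.0, 57.7 and 62.9 TPM in control KD and 87.0, 88.8 and 87.0 TPM in *Yy1* KD libraries (log2 fold change 0.47, adjusted p = 0.0315), and *Pygl*, glycogen phosphorylase of liver type, 14.3, 14.8 and 11.5 TPM and 20.7, 24.5 and 24.9 TPM (log2 fold change 0.75, adjusted p = 0.0318). Each of these 4 genes was called in 6 or 7 of 16 alternatives and in 0 of 6 fits with a library left out. *Styx* overlaps 81.9% of the exons of *Gnpnat1* and the antisense gene *Gm15491* 6.41% of those of *Oga*. Strand was ignored in counting, and pairs on both genes were divided between them. *Styx* was at 33.4, 28.7 and 30.9 TPM in control KD and 40.2, 36.5 and 38.1 TPM in *Yy1* KD libraries. *Gm15491* was at 67.2, 62.1 and 68.2 TPM and 75.6, 76.2 and 75.0 TPM. Both were also higher in each *Yy1* KD library, and their part in the levels of *Gnpnat1* and *Oga* was not tested. Of the 17 genes in this list, 14 were tested, with a median of 0.06. A lower value was found for 7 of these 14, compared with 52.8% of all genes tested. Of the 7, 2 had an unadjusted p under 0.05 in the limma fit, as did 23.8% of all genes tested in either direction. Both, named after their values were seen, were lower without overlap and not called by limma, *Ogt*, which encodes the enzyme that adds O-linked N-acetylglucosamine, at 46.3, 36.9 and 54.1 TPM in control KD and 34.8, 24.2 and 34.0 TPM in *Yy1* KD libraries (log2 fold change -0.55, adjusted p = 0.139), and *Pgm2* (log2 fold change -0.56, adjusted p = 0.162). Limma-voom called 4 genes of the list higher and 1 lower, beside 809 higher and 1280 lower over all genes. Its most abundant gene, the polyol enzyme gene *Sord* at 711 to 1080 TPM over both groups, was not called (log2 fold change -0.16, adjusted p = 0.559).

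Among 17 regulators of glycolytic genes, all tested, limma called 1 lower and 0 higher, beside 4.20% and 1.92% of all genes tested. At an unadjusted p under 0.05 in the limma fit, 3 were lower and 2 higher, beside 23.8% of all genes tested in either direction. Limma-voom called 2 lower and 2 higher, beside 1280 and 809 over all genes. The gene called by limma was *Tfap2c* (192, 179 and 180 TPM in control and 135, 116 and 125 TPM in *Yy1* KD, log2 fold change -0.55, adjusted p = 0.0174). It was called in 10 of 16 alternatives and in 1 of 6 fits with a library left out (adjusted p from 0.00181 to 0.0659). It encodes a trophectoderm transcription factor and is also in the list of embryo markers. *Epas1*, encoding the hypoxia-inducible factor HIF-2 alpha, was the most abundant regulator at 302, 383 and 347 TPM in control KD and 274, 239 and 250 TPM in *Yy1* KD libraries, lower without overlap and not called (log2 fold change -0.43, adjusted p = 0.062, and called in 2 of 16 alternatives). The most abundant genes of the gluconeogenic and pentose phosphate lists had small differences, *Fbp2* with a log2 fold change of -0.12 (95% interval -0.38 to 0.15, adjusted p = 0.589) and *Taldo1* with -0.01 (95% interval -0.19 to 0.16, adjusted p = 0.936).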
